A study of Mus musculus with 12 samples.

Results

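The nucleolar ribosome biogenesis factors examined here are 49 genes, taken by name from the 24421 gene symbols of a count table of mouse bone marrow-derived macrophages (BMDMs). All 49 were found and all 49 passed the filter on low counts. Total RNA was sequenced from BMDMs of wild-type C57BL/6 mice after 5 days of culture with 100 ng/mL of M-CSF, the growth factor that drives macrophage differentiation, with a medium change on day 3. The cells then spent 4 hours with I-BET151 (iBET, a small molecule that keeps BET bromodomain proteins off acetylated histones) at 5 µM or with DMSO, recorded as 5% for these libraries. Each arm also received either ovalbumin (Ova) or ovalbumin bound by IgG as an immune complex (IC), which cross-links Fc gamma receptors. The 4 groups are named by drug and stimulus, as in DMSO Ova or iBET IC. Every group held 1 library from each of mice A, B and C, which makes 12 libraries, and a library is named by its group and mouse, as in DMSO Ova A. The labels have drug and stimulus added together, whereas the study's methods put the drug earlier, and the cells were lysed after a sort whose gate is not given in the sources used here. The methods name 5% DMSO only for the solvent given to mice. For culture they describe a drug stock in DMSO that was diluted, so the DMSO content of each arm is uncertain.

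Ribosomes are built in the nucleolus, where RNA polymerase I transcribes a long precursor of ribosomal RNA (rRNA). Small nucleolar RNAs (snoRNAs) in box C/D particles guide its methylation and those in box H/ACA particles guide its pseudouridylation, the small subunit processome folds and cleaves the future small subunit, and separate sets of factors assemble and export each subunit. Many genes of this pathway are known as targets of the transcription factor Myc, and macrophages that respond to a stimulus need ribosomes for protein synthesis. The members were grouped by role into box C/D particle proteins (3), box H/ACA particle proteins (3), nucleolar scaffold and rRNA transcription proteins (6), small subunit processome (13), late 40S factors (5), the PeBoW complex (3) and 60S assembly factors (16).

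Library totals ranged from 7549849 to 17387639 counts. The precursor rRNA transcript Rn45s took 1.41% to 7.83% of the counts in 11 libraries and 77.4% in DMSO Ova A. Members received between 11346 counts, in that library, and 75592 counts. Markers of macrophages were plentiful, with 12 of 12 tested and a summed level of 7360 to 9590 CPM (counts scaled to library size after TMM normalization). The summed markers of T cells, dendritic cells, fibroblasts and erythroid cells each stayed at or under 4.43 CPM in every library, with Lum and 5 erythroid genes at 0, and those of neutrophils and their precursors lay between 9.76 and 56.3 CPM.

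Both DMSO libraries of mouse A stood apart in the members. The summed level of the members was 5827 CPM in mouse A, 3648 in mouse B and 3607 in mouse C in DMSO Ova, and 6344, 4203 and 4351 CPM in DMSO IC. In the drug-treated groups the same sums were 3804, 4381 and 4329 CPM in iBET Ova and 4034, 4024 and 3705 CPM in iBET IC, so mouse A was highest by a wide margin in both DMSO groups, lowest in iBET Ova and close to mouse B in iBET IC. In DMSO Ova, 7 members were at least 2-fold higher in mouse A than in the mean of the other two mice (Ebna1bp2, Ncl, Nop58, Wdr43, Ftsj3, Nolc1 and Utp18), which is 14.3% of members against 5.45% of all genes tested. In DMSO IC there were 5 such members (Ebna1bp2, Nop16, Gar1, Ncl and Nop58), or 10.2% against 4.46% of all genes, and in both iBET groups there were none. Imp3 went the other way and was lowest in DMSO Ova A, at 4.11 CPM. DMSO Ova A and DMSO IC A also had the highest Rn45s shares, 77.4% and 7.83%. The part of rRNA content in these levels was not tested, and animal and library cannot be told apart. Values without mouse A, or without its DMSO library, are given beside several of the members that follow.

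**Figure D1:**
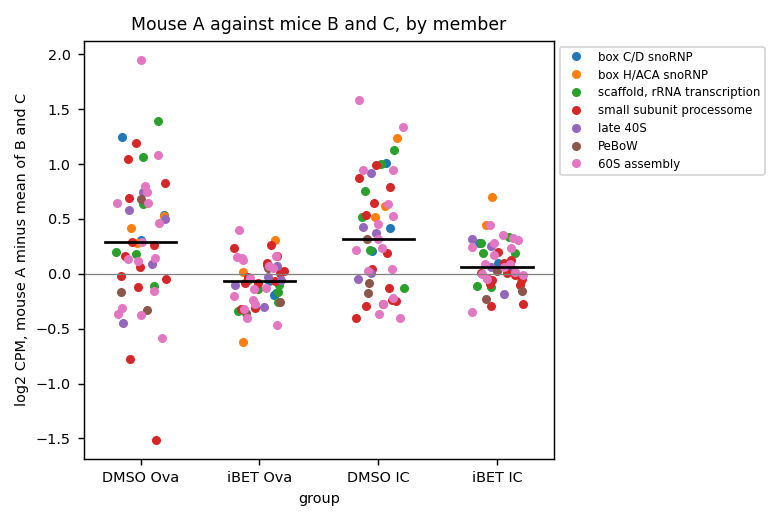
Difference in log2 CPM between mouse A and the mean of mice B and C (vertical axis) for each of the 49 members in the 4 groups (horizontal axis). Points are members coloured by role and bars are medians, which were 0.29 in DMSO Ova and 0.32 in DMSO IC against -0.07 in iBET Ova and 0.06 in iBET IC.

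Levels differed widely among members. Per kilobase of exon, Npm1 was the most abundant in DMSO Ova, at 192 ± 14.5 CPM per kb (SD, n = 3), followed by Ncl at 111 ± 67.3, Pes1 at 63.5 ± 18.5 and Noc2l at 58.4 ± 16.4. The spread of Ncl overlapped those of its neighbours in that order. The length used was the union of all annotated exons of a gene, 10.2 kb for Ncl and 2.66 kb for Npm1, and the order depends on that choice. By CPM alone Ncl was above Npm1 in DMSO Ova, at 1130 ± 685 against 511 ± 38.8. Nle1 was the least abundant, at 1.71 ± 0.107 CPM per kb. Ncl alone made up 18.2% to 33% of the members' summed CPM, so a sum over members follows Ncl closely. Every later result is given gene by gene.

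**Figure D2:**
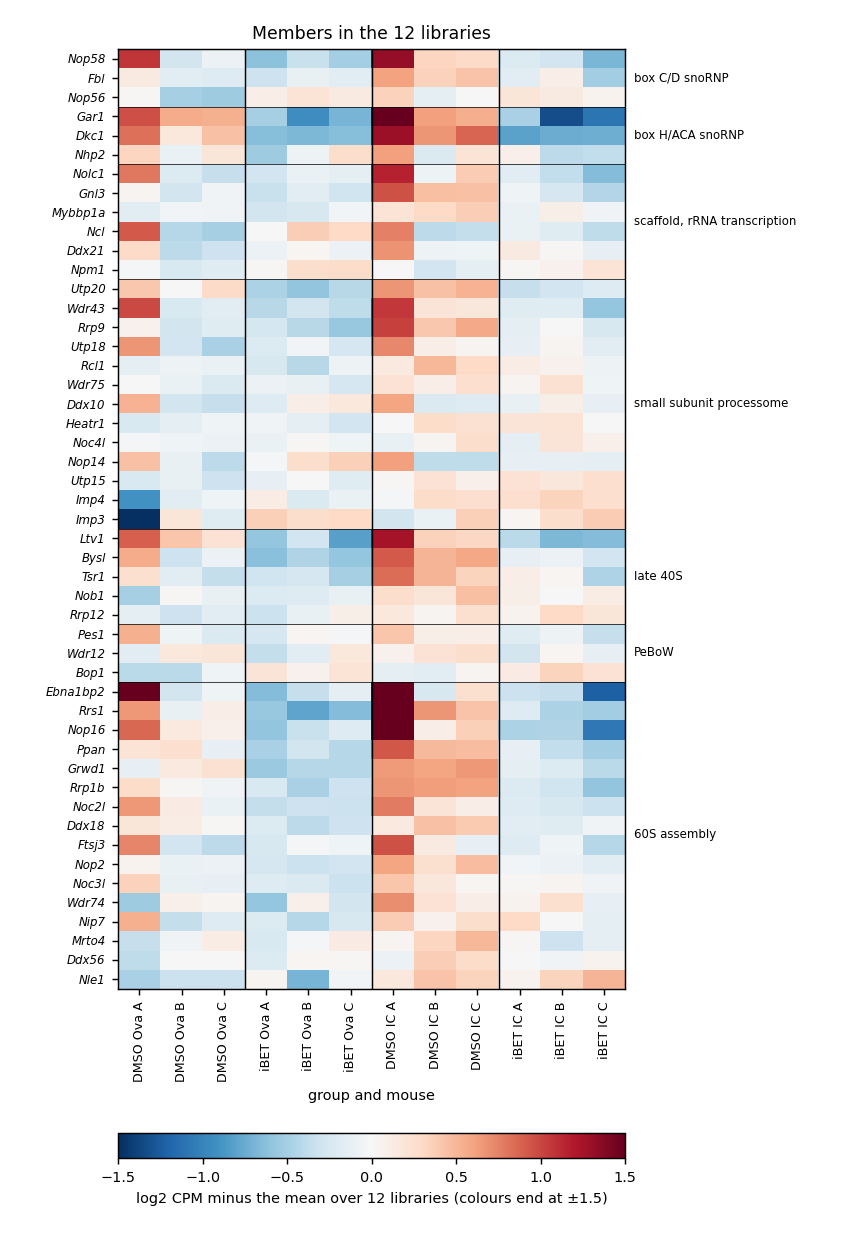
Log2 CPM of the 49 members (rows, grouped by role and sorted by the mean effect of iBET) in the 12 libraries (columns, by group and mouse), less each gene's mean over the libraries. High values gather in the DMSO IC columns, the colours of Gar1, Rrs1, Nop16 and Ebna1bp2 are among the darkest in DMSO IC A, and Imp3 is lowest in DMSO Ova A.

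The first comparison asked what BET inhibition did to these transcripts in macrophages without and with Fc gamma receptor engagement. With Ova, iBET lowered 11 of 49 members (22.4%) and raised 3 (6.12%), at an adjusted p under 0.05 over all genes tested. Among the 11468 genes tested, 14.2% were called lower and 17.1% higher, 31.3% in all. With IC, iBET lowered 21 members (42.9%) and raised 0, whereas 15.8% of all genes were called lower and 19% higher, 34.8% in all. DESeq2 also called 0 higher, and among members with values above 0 the unadjusted p was under 0.05 for Bop1 alone (0.0221). The median log2 fold change of the members was -0.18 with Ova and -0.41 with IC, beside 0.02 and -0.00366 for all genes tested. With single libraries or mice left out, the Ova median ranged from -0.309 (without mouse B) to -0.105 (without mouse A), where that of all genes was 0.0054 and 0.0123, and it was -0.107 without iBET Ova A. The IC median ranged from -0.53 (without mouse B) to -0.326 (without mouse A). CPM are shares of a library, and in bulk samples fewer cells of a type and less RNA per cell cannot be told apart.

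The 11 members that fell with Ova were all among the 21 that fell with IC, which is 100% of the shorter list and 52.4% of the longer one. The 2 comparisons use different libraries of the same mice, and the same drug was given in both. The matching overlap among all genes called lower was not computed. Whether the overlap is particular to the members was therefore not tested. The members lowered in both were Gar1, Dkc1, Utp20, Ltv1, Bysl, Rrs1, Grwd1, Ppan, Rrp1b, Ddx18 and Noc2l. Those called with IC alone were Fbl, Nop58, Nolc1, Gnl3, Mybbp1a, Rrp9, Tsr1, Nop2, Nop16 and Mrto4. The 3 raised with Ova were Npm1, Bop1 and Nop56. Every called member moved in the same direction in 3 of 3 mice. A call with 3 libraries per group makes a shared direction likely, and its share among all called genes was not computed. The difference between the 2 drug effects is the interaction, described further on, in which no member was called.

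**Figure D3:**
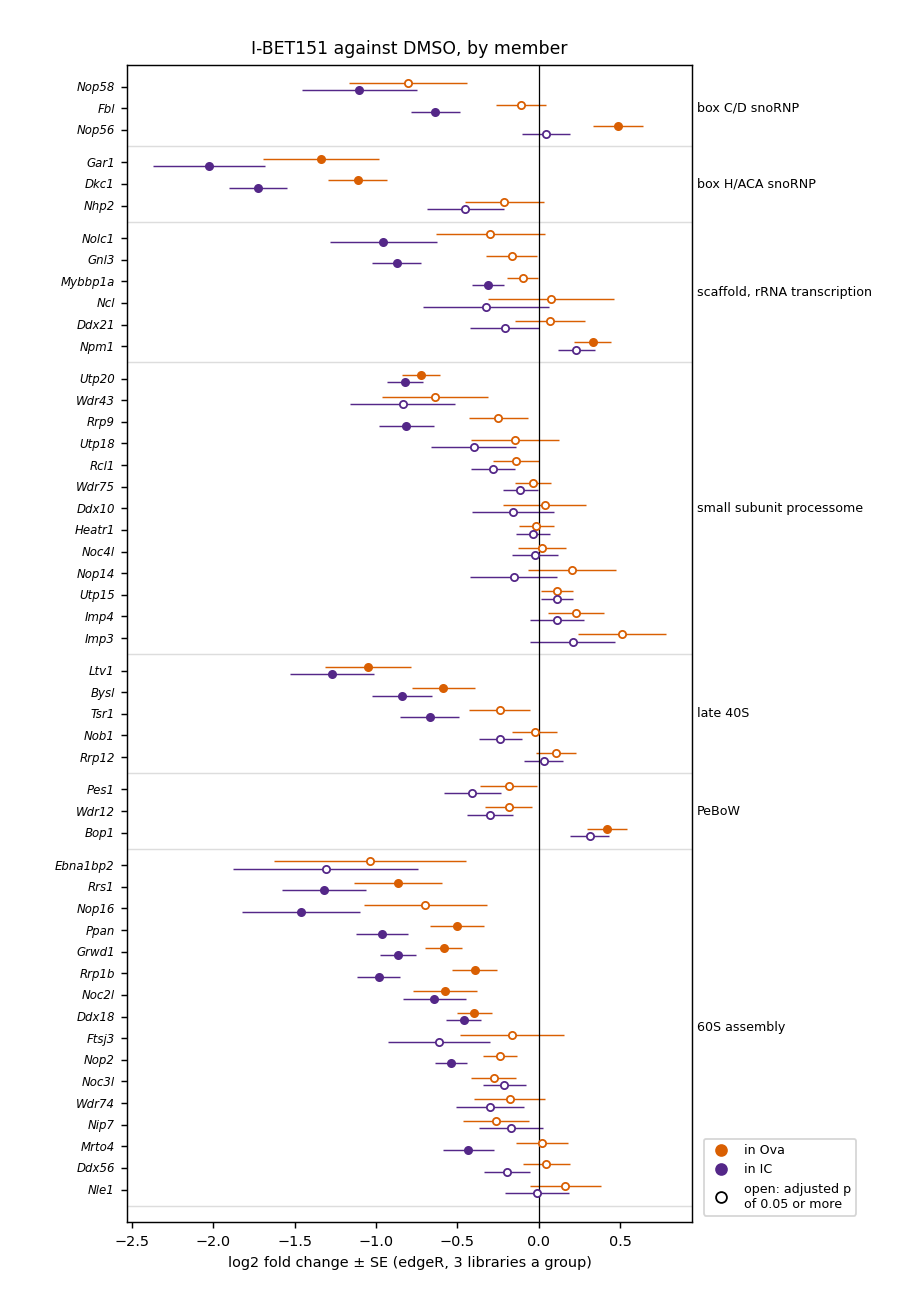
Log2 fold change of iBET against DMSO (horizontal axis) with its SE for each member (vertical axis, by role), in Ova (orange) and in IC (purple). Filled points passed an adjusted p of 0.05. The points lie left of 0 for 34 of 49 members in Ova and for 42 in IC, with Gar1 and Dkc1 farthest to the left.

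The size of the Ova count rested on single libraries and mice. Omitting mouse A gave 15 called members (30.6%), 9 lower (18.4%) and 6 higher, where 33.6% of all genes were called, 15.9% lower and 17.7% higher. Both shares of members were then near those of all genes. Omitting mouse B gave 2 members, both lower (4.08%), where 5.21% of all genes were lower, and omitting mouse C gave 5, of which 4 were lower (8.16%), where 8.41% of all genes were lower. The Ova count was 7, 5 and 6 without iBET Ova A, B and C taken singly, where 24.7%, 23.4% and 26.8% of all genes were called, and 8 and 9 without DMSO Ova B and C, where the shares of all genes were 25.1% and 24.7%. Dkc1 and Utp20 were the 2 members called lower in all 15 fits that left out a library or a mouse. The 6 higher without mouse A were Nop56, Npm1, Ncl, Ddx21, Nop14 and Ddx10. For IC the count was 24 (23 lower and 1 higher, Npm1), 14 and 13 with mouse A, B and C omitted in turn. Members called lower were then 46.9%, 28.6% and 26.5%, beside 15.6%, 6.99% and 9.91% of all genes. With IC, 11 members were called lower in all 15 fits: Gar1, Dkc1, Gnl3, Rrp9, Utp20, Ltv1, Nop2, Rrs1, Rrp1b, Ppan and Grwd1. Taken mouse by mouse, members with a lower value in iBET numbered 38, 27 and 26 of 49 in mice A, B and C with Ova, with medians of -0.45, -0.04 and -0.03, and 42, 36 and 40 with IC, with medians of -0.64, -0.20 and -0.42. Of all genes, 47.7%, 45.6% and 48% were lower in mice A, B and C with Ova, and 49.6%, 46.7% and 50.6% with IC. With Ova the median shift of the members was therefore large in mouse A and near 0 in mice B and C.

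The box H/ACA particle, which converts uridines of rRNA to pseudouridine and also binds telomerase RNA, held the 2 members with the largest falls. Gar1, a core subunit of the particle, was at 18.5, 13.9 and 13.7 CPM in mice A, B and C in DMSO Ova and at 6.71, 4.96 and 5.87 in iBET Ova. With IC it was at 33.8, 14.5 and 13.8 CPM in DMSO and at 6.78, 3.78 and 4.43 in iBET. All 6 iBET libraries lay below all 6 DMSO libraries. Gar1 fell with Ova (log2 fold change -1.34, SE 0.356, adjusted p 0.0138) and with IC (-2.02, SE 0.345, adjusted p 0.000844). Leaving out mouse B (adjusted p 0.11), mouse C or iBET Ova B ended the Ova call, while the log2 fold change stayed between -1.46 and -1.24 over the 15 fits. Dkc1 encodes dyskerin, the pseudouridine synthase of the particle, and lies at chrX:75095854-75109777 (GRCm38, plus strand). Its levels were 43.1, 27.2 and 32.9 CPM in DMSO Ova, 15.6, 15.3 and 15.6 in iBET Ova, 59.4, 38.4 and 44.5 in DMSO IC and 13.9, 14.5 and 14.6 in iBET IC. The 6 iBET values of Dkc1 were nearly equal, while the DMSO values spread with mouse A on top. Dkc1 fell with Ova (-1.11, SE 0.183, adjusted p 0.00065) and with IC (-1.73, SE 0.179, adjusted p 2.02e-05). Nhp2, the third core protein here, had 49.8, 37.2 and 45.1 CPM in DMSO Ova and 27.5, 37.7 and 47.7 in iBET Ova, and 60.9, 34.1 and 45.9 against 41.7, 30.3 and 30.8 with IC. These groups overlapped, and its log2 fold changes were -0.21 (SE 0.242, adjusted p 0.546) and -0.45 (SE 0.236, adjusted p 0.162).

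The 250 bases before the start of these 2 genes in RefSeq (GRCm38.p6) are printed because Gar1 and Dkc1 fell most. Neither holds CACGTG, the E-box letters bound by Myc with its partner Max, so no letter is in capitals.
Gar1 (chr3:129831397-129831646, minus strand): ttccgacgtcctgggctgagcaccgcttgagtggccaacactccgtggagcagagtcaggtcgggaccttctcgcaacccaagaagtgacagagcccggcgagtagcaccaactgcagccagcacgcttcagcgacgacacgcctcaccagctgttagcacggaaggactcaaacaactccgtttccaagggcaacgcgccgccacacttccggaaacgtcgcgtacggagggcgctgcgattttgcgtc
Dkc1 (chrX:75095604-75095853, plus strand): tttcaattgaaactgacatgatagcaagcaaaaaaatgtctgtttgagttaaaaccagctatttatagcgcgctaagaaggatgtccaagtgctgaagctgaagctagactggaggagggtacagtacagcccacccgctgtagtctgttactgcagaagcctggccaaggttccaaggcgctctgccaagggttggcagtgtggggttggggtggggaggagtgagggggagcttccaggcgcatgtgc

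**Figure D4:**
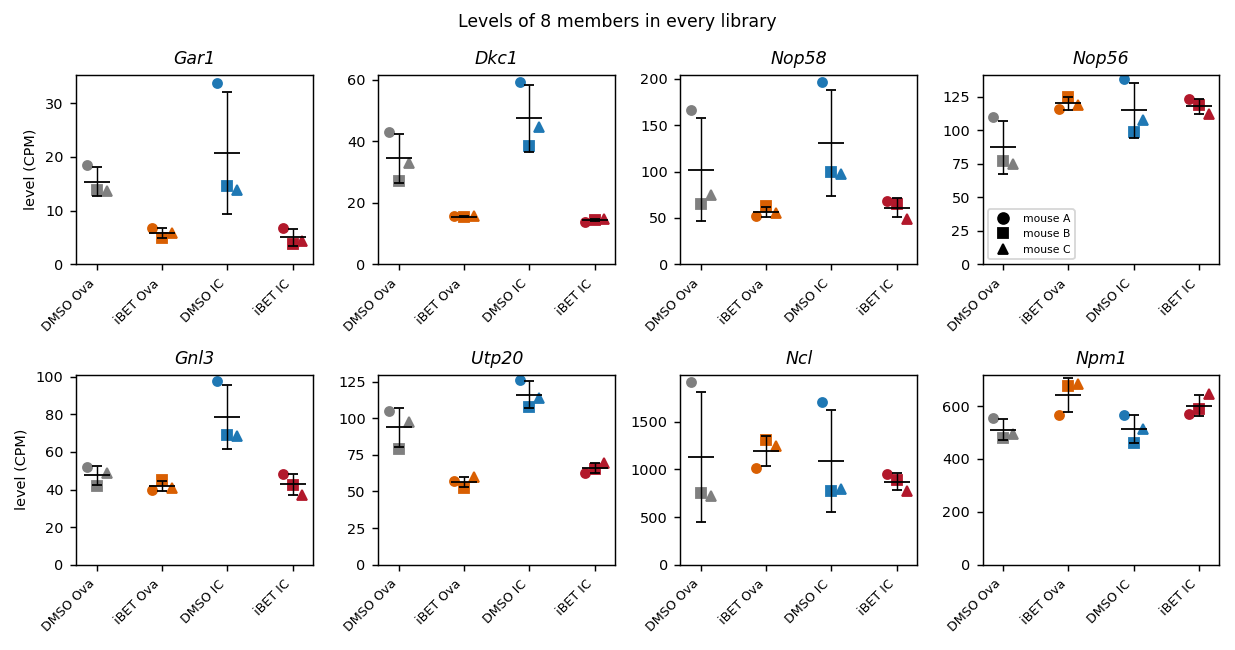
Levels in CPM (vertical axes, from 0) of 8 members in the 4 groups (horizontal axes), with 1 point per library shaped by mouse, and mean ± SD over 3 libraries. Gar1, Dkc1 and Utp20 have no overlap between iBET and DMSO, Gnl3 is high in DMSO IC, and mouse A tops the DMSO values of Nop58 and Ncl.

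The box C/D particle, whose proteins place methyl groups on the ribose of rRNA, was split. Nop58, one of its core scaffold proteins, had 166, 65.3 and 74.5 CPM in DMSO Ova, 51.6, 62.8 and 55.4 in iBET Ova, 197, 99 and 96.9 in DMSO IC and 68.6, 65 and 49.1 in iBET IC. Groups with and without iBET did not overlap in either comparison, but mouse A set the size of the gap in DMSO. Its log2 fold change was -0.80 with Ova (SE 0.36, adjusted p 0.115), -0.36 without DMSO Ova A and -0.27 without mouse A, and it fell with IC (-1.10, SE 0.354, adjusted p 0.032). Leaving out DMSO IC A (-0.72, adjusted p 0.142), mouse B, mouse C or any one iBET IC library ended that call. Fbl, the methyltransferase fibrillarin, had 56, 45.7 and 44.6 CPM in DMSO Ova and 41.1, 47.2 and 45.6 in iBET Ova, which overlapped (-0.11, SE 0.153, adjusted p 0.623). In DMSO IC it was at 77.4, 65 and 68.8 CPM and in iBET IC at 45.6, 54.8 and 35.4, and it fell (-0.64, SE 0.149, adjusted p 0.0057), a call that ended without mouse C (adjusted p 0.0664). Nop56, the partner of Nop58, rose with Ova, from 110, 76.8 and 74.6 CPM to 116, 125 and 119 (0.48, SE 0.153, adjusted p 0.0302). The mouse A pair was nearly level, and the call was lost in 7 of 15 fits without a library or mouse, among them those that omit mouse B (adjusted p 0.288) or mouse C. With IC, Nop56 had 138, 98.6 and 108 CPM in DMSO and 123, 119 and 112 in iBET (0.04, SE 0.15, adjusted p 0.85).

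Of the 6 scaffold and rRNA transcription proteins, 0 fell with Ova (0%, beside 14.2% of all genes) and 3 fell with IC (50%, beside 15.8%). Gnl3, the nucleolar GTPase nucleostemin, had 51.9, 41.9 and 48.7 CPM in DMSO Ova and 40, 45 and 41 in iBET Ova, with overlap (-0.17, SE 0.156, adjusted p 0.452). With IC it was at 98, 68.8 and 68.5 CPM in DMSO and at 48.5, 42.4 and 37.3 in iBET, with a wide gap between the groups. It fell (-0.87, SE 0.152, adjusted p 0.000833). Nolc1, a chaperone of snoRNA particles, had 95.5, 47.8 and 43.4 CPM in DMSO Ova against 45, 51.2 and 50 in iBET Ova (-0.30, SE 0.334, adjusted p 0.539), where mouse A alone set the sign. With DMSO Ova A left out the value was 0.04. With IC Nolc1 had 123, 52.2 and 72 CPM in DMSO and 49, 42.8 and 35.2 in iBET and fell (-0.96, SE 0.327, adjusted p 0.0419). This call was lost in 9 of 15 fits without a library or mouse, and with DMSO IC A left out the log2 fold change was -0.58 (adjusted p 0.163). Mybbp1a, a nucleolar binding partner of transcription factors, fell with IC (-0.31, SE 0.0967, adjusted p 0.0239), a call that was lost in 6 of the 15 fits.

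Npm1, the histone and ribosomal protein chaperone nucleophosmin, moved the other way. It had 555, 481 and 496 CPM in DMSO Ova and 567, 675 and 682 in iBET Ova, without overlap, and rose by 0.33 (SE 0.113, adjusted p 0.0422). With IC it had 565, 459 and 513 CPM in DMSO and 570, 588 and 647 in iBET (0.23, SE 0.113, adjusted p 0.133). The Ova call was lost in 10 of 15 fits without a library or mouse (adjusted p up to 0.347), and it held in 3 of 9 other alternatives. It was lost with DESeq2 size factors, both other filters, the compared groups alone, the authors' signal in limma and removal of Rn45s. The call thus stood close to the threshold. Ncl, nucleolin, the most heavily counted member, had 1920, 752 and 719 CPM in DMSO Ova and 1010, 1310 and 1250 in iBET Ova (0.07, SE 0.388, adjusted p 0.907). Mouse A moved down and mice B and C moved up, and without mouse A Ncl was called higher (0.77). Ddx21, an RNA helicase of rRNA transcription, was not called in either comparison (0.07 and -0.21), though without mouse A it was called higher with Ova (0.29).

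The small subunit processome, the large particle that forms around nascent precursor rRNA with the U3 snoRNA, had 13 members here. iBET lowered 1 of them with Ova (7.69%, beside 14.2% of all genes) and 2 with IC (15.4%, beside 15.8%), and the median log2 fold changes were -0.015 and -0.155. Utp20, a long scaffold protein of the particle, had 105, 79.1 and 97.2 CPM in DMSO Ova, 57.1, 52.7 and 59.6 in iBET Ova, 126, 108 and 114 in DMSO IC and 62.6, 65.2 and 69.5 in iBET IC. No iBET value reached a DMSO value of either stimulus. It fell with Ova (-0.72, SE 0.115, adjusted p 0.000512) and with IC (-0.82, SE 0.113, adjusted p 0.000157). Rrp9, a protein of the U3 particle, had 15.9, 12.6 and 13.4 CPM in DMSO Ova and 12.7, 11.4 and 10.3 in iBET Ova (-0.25, SE 0.181, adjusted p 0.324). With IC it had 31.1, 20.2 and 22.6 CPM in DMSO and 13.9, 15.2 and 12.9 in iBET, and fell (-0.81, SE 0.17, adjusted p 0.00276). Wdr43, part of the complex that links the processome to rRNA transcription, had 209, 89.2 and 93.4 CPM in DMSO Ova against 78.6, 86.7 and 80.3 in iBET Ova, and 218, 120 and 118 against 92.4, 92.4 and 70.4 with IC. Mouse A carried most of the gap, and the log2 fold changes of -0.64 (SE 0.326, adjusted p 0.164) and -0.84 (SE 0.322, adjusted p 0.0652) did not pass the test. The Ova value was -0.16 without mouse A and -0.21 without DMSO Ova A, and the IC value was -0.52 without DMSO IC A (adjusted p 0.251). Wdr43 was called lower with IC in 4 of the 15 fits, among them the one without mouse A (-0.56, adjusted p 0.00344), and with a block for mouse. The other 10 processome members, Imp3, Imp4, Heatr1, Utp15, Wdr75, Utp18, Nop14, Noc4l, Rcl1 and Ddx10, were called in neither comparison. Imp3 had the highest value of all members with Ova (0.51, SE 0.27, adjusted p 0.174), where DMSO Ova A held 4.11 CPM and the other two libraries of that group 13.6 and 10.6.

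The late 40S factors, which bind the small subunit until its last rRNA cleavage, held 2 members that fell with Ova and 3 that fell with IC, of 5. These are 40% and 60%, beside 14.2% and 15.8% of all genes called lower. Ltv1, an assembly factor of the small subunit head, had 61.1, 43.8 and 38 CPM in DMSO Ova, 21.9, 26.8 and 18.6 in iBET Ova, 77.6, 41.5 and 40.6 in DMSO IC and 24.7, 20.6 and 20.9 in iBET IC. The 2 treatments did not overlap. It fell with Ova (-1.05, SE 0.264, adjusted p 0.0104) and with IC (-1.27, SE 0.258, adjusted p 0.00269), and the Ova call was lost without mouse B (adjusted p 0.0621). Bysl, bystin, had 36, 19.7 and 23.1 CPM in DMSO Ova and 15.9, 17.9 and 16.4 in iBET Ova, a small gap, and 46.3, 35 and 36.5 against 22.5, 23 and 20.1 with IC. It fell with Ova (-0.59, SE 0.194, adjusted p 0.0364) and with IC (-0.84, SE 0.184, adjusted p 0.00368). The Ova call was lost in 7 of 15 fits, with a value of -0.35 without mouse A (adjusted p 0.0763), and the IC call without mouse C (adjusted p 0.0503). Tsr1, a GTPase-like factor that blocks premature translation by the new subunit, had 66.3, 50.4 and 43.8 CPM in DMSO Ova and 45.6, 47.4 and 39.9 in iBET Ova, with overlap (-0.24, SE 0.188, adjusted p 0.359). With IC it had 101, 79.9 and 71.2 CPM in DMSO and 60.2, 57.3 and 40.7 in iBET and fell (-0.67, SE 0.182, adjusted p 0.0129), a call that ended without mouse B (adjusted p 0.104) or iBET IC C. Nob1, the endonuclease of the last cleavage, and Rrp12 were called in neither comparison (-0.03 and 0.10 with Ova, -0.24 and 0.03 with IC).

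The PeBoW complex, a trimer needed to process the rRNA of the large subunit, held 0 of 3 members called lower in either comparison. Of all genes, 14.2% were called lower with Ova and 15.8% with IC. Bop1, its scaffold, had 23.6, 23.6 and 29.8 CPM in DMSO Ova and 35.5, 32.6 and 35.9 in iBET Ova, without overlap, and rose by 0.42 (SE 0.123, adjusted p 0.0205). With IC it had 28.2, 27.9 and 32 CPM in DMSO and 33.8, 39.3 and 36.3 in iBET (0.31, SE 0.119, adjusted p 0.06). The Ova call was lost in 6 of 15 fits, including the one without mouse A, and a block for mouse made Bop1 a called rise with IC. Its partner Pes1, pescadillo, had 256, 168 and 152 CPM in DMSO Ova against 148, 180 and 174 in iBET Ova, and 235, 187 and 189 against 155, 167 and 139 with IC. The Ova values overlapped and mouse A ran opposite to the other mice. The log2 fold changes of Pes1 were -0.19 (SE 0.176, adjusted p 0.459) and -0.41 (SE 0.175, adjusted p 0.0898), and without mouse A the latter was -0.31 and was called. Wdr12 had 49.3, 61.6 and 62.3 CPM against 43.1, 49.4 and 61.6 with Ova (-0.19, SE 0.144, adjusted p 0.357). With IC it had 57.6, 63.9 and 66.4 against 45.6, 56.5 and 50.6 (-0.30, SE 0.142, adjusted p 0.12), and a block for mouse made this a called fall.

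The 60S assembly factors were the largest role group, with 16 members. Of these, iBET lowered 6 with Ova (37.5%, beside 14.2% of all genes) and 9 with IC (56.2%, beside 15.8%). The median log2 fold changes of the 16 were -0.34 and -0.58. Rrs1, which recruits the 5S rRNA particle, had 41.6, 24.6 and 28.5 CPM in DMSO Ova, 17.9, 15.3 and 16.9 in iBET Ova, 74.6, 42 and 35.7 in DMSO IC and 23.3, 19.1 and 18.5 in iBET IC. It fell with Ova (-0.86, SE 0.27, adjusted p 0.0298) and with IC (-1.32, SE 0.259, adjusted p 0.00213), with no overlap in either comparison. The Ova call was lost in 7 of 15 fits, and with DMSO Ova A left out the value was -0.71 (adjusted p 0.0533). Nop16 had 22.1, 13.4 and 12.8 CPM in DMSO Ova, 8.03, 9.59 and 10.6 in iBET Ova, 36.3, 13 and 15.6 in DMSO IC and 8.75, 8.91 and 5.75 in iBET IC. The groups did not overlap, and its log2 fold change was -0.70 with Ova (SE 0.377, adjusted p 0.184), -0.41 without mouse A and -0.54 without DMSO Ova A, and it was called lower with Ova in 1 of 15 fits (adjusted p 0.0264, without DMSO IC A). With IC it fell (-1.46, SE 0.362, adjusted p 0.00882). Leaving out DMSO IC A moved the IC value to -0.89, and leaving out mouse C ended the call (adjusted p 0.0567). Ebna1bp2, a partner of early large subunit particles, had 76.5, 18.2 and 21.1 CPM in DMSO Ova, 14, 17.3 and 20 in iBET Ova, 66.2, 18.6 and 26 in DMSO IC and 17.6, 17.4 and 9.47 in iBET IC. Its large values of -1.04 (SE 0.592, adjusted p 0.212) and -1.31 (SE 0.57, adjusted p 0.0984) did not pass the test, and their size rested on mouse A. The Ova value was -0.10 without mouse A, and the IC value was -0.61 without DMSO IC A.

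The other called 60S factors had smaller changes. Grwd1, a chaperone of a large subunit ribosomal protein, had 30.3, 36.7 and 38.7 CPM in DMSO Ova, 22.5, 24.5 and 24.6 in iBET Ova, 51.6, 49.7 and 52 in DMSO IC and 30.2, 28.7 and 25 in iBET IC. It fell with Ova (-0.59, SE 0.115, adjusted p 0.00213) and with IC (-0.87, SE 0.112, adjusted p 9.9e-05), and mouse A was not the highest DMSO Ova value. The helicase Ddx18 had log2 fold changes of -0.40 and -0.46 with Ova and IC (adjusted p 0.0153 and 0.005). Those of Ppan were -0.51 and -0.96 (adjusted p 0.0346 and 0.000603), and those of Noc2l, with DMSO levels again highest in mouse A, were -0.58 and -0.64 (adjusted p 0.0417 and 0.0228). The Ova calls of Ddx18, Ppan and Noc2l were lost in 3, 6 and 10 of 15 fits, and the IC calls of Ddx18 and Noc2l in 2 and 5. Rrp1b had 25.2, 21.1 and 20 CPM in DMSO Ova, 17.7, 14.9 and 16.8 in iBET Ova, 32.9, 32.1 and 31.7 in DMSO IC and 18, 16.9 and 13.8 in iBET IC, and fell with Ova (-0.39, SE 0.138, adjusted p 0.0464) and with IC (-0.98, SE 0.133, adjusted p 0.000138). The Ova call of Rrp1b was lost in 13 of 15 fits. Nop2, which methylates a cytosine of the large rRNA, had 65.7, 59.2 and 59.8 CPM in DMSO Ova and 53.2, 50.8 and 51.7 in iBET Ova, without overlap (-0.24, SE 0.102, adjusted p 0.0953). With IC it had 95.2, 74.9 and 87.4 against 61.5, 59.4 and 56.2 CPM and fell (-0.54, SE 0.1, adjusted p 0.00127). Mrto4 fell with IC (-0.43, SE 0.155, adjusted p 0.0463), a call lost in 8 of 15 fits, and was at 0.02 with Ova. Wdr74, Ddx56, Noc3l, Nip7, Ftsj3 and Nle1 were called in neither comparison, with log2 fold changes from -0.28 (Noc3l) to 0.16 (Nle1) with Ova and from -0.61 (Ftsj3) to -0.0117 (Nle1) with IC.

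The second comparison asked whether Fc gamma receptor engagement moved these transcripts. In DMSO, 4 of 49 members (8.16%) were called higher with IC and 0 lower, where 0.732% of all genes were called higher and 0.488% lower, 1.22% in all. The 4 were Rrp9, Nop2, Gnl3 and Grwd1. By DESeq2 there were 8 higher (16.3%) and 0 lower, where 2.32% of all genes were called. The log2 fold change was above 0 for 48 of 49 members, with Ncl the exception at -0.05, and 23 members had an unadjusted p under 0.05 beside 11.7% of all genes. The median over members was 0.34, against -0.01 for all genes tested, and it ranged from 0.276 (without DMSO IC A) to 0.401 (without DMSO IC B). Mouse by mouse, 43, 43 and 49 members were higher with IC in mice A, B and C, with medians of 0.302, 0.337 and 0.375, which lay close together. Of all genes, 51.4%, 46.5% and 49% were higher in mice A, B and C.

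Rrp9 rose by 0.85 (SE 0.178, adjusted p 0.0382), from 15.9, 12.6 and 13.4 CPM to 31.1, 20.2 and 22.6. Gnl3 rose by 0.74 (SE 0.155, adjusted p 0.0392), from 51.9, 41.9 and 48.7 CPM to 98, 68.8 and 68.5. Nop2 rose by 0.49 (SE 0.102, adjusted p 0.0382) and Grwd1 by 0.52 (SE 0.113, adjusted p 0.0494). In all 4 genes every DMSO IC library lay above every DMSO Ova library, and no pair of mice reversed, which a call with 3 libraries per group makes likely. These calls were close to the threshold. With single libraries or mice left out, the call of Rrp9 was lost in 12 of 15 fits. Those of Nop2 and Gnl3 were lost in 13 and that of Grwd1 in 15. The number of members called was 0 when mouse B, mouse C or any of 10 of the 12 libraries was left out. Of all genes, 0% and 0.0872% were then called without mouse B and mouse C, and 0.384% to 1.06% without one of those 10 libraries. The number of members called was 2 (Rrp9 and Nop2) without DMSO IC B. It was 5 (Nop56, Gnl3, Rrp9, Bysl and Nop2) without DMSO Ova A and 4 (Nop56, Gnl3, Rrp9 and Bysl) without mouse A. Of all genes, 0.671%, 1.08% and 1.38% were called in these fits, in that order. A block for mouse gave 8 members called higher, the further 4 being Mybbp1a, Tsr1, Rrs1 and Rrp1b, beside 2.75% of all genes called. With 1 surrogate variable the number was 20 (40.8%), beside 3.79% of all genes, and with the 6 compared libraries fitted alone it was 0, beside 0.0436% of all genes.

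In iBET, IC changed no member at an adjusted p under 0.05 in edgeR (0 of 49) or in DESeq2 (0), where 0.349% of all genes were called, 0.314% higher and 0.0349% lower. At an unadjusted p under 0.05 there were 4 members, Utp15, Heatr1, Rrp12 and Nle1, beside 7.5% of all genes. Utp15, a processome protein tied to rRNA transcription, had 43, 46.6 and 41.4 CPM in iBET Ova and 54.5, 52.6 and 55.9 in iBET IC, without overlap (0.31, SE 0.0959, adjusted p 0.34). In DMSO the same gene had 40.1, 43.3 and 37.9 CPM against 47.3, 54.4 and 49.3 (0.31, SE 0.0982, adjusted p 0.177). Heatr1, of the same subcomplex, had 109, 103 and 92.5 CPM in iBET Ova and 130, 131 and 114 in iBET IC (0.30, SE 0.105, adjusted p 0.454), and 96.6, 102 and 108 against 114, 137 and 133 in DMSO (0.32, SE 0.106, adjusted p 0.208). These 2 genes had near-equal values in both arms. Without mouse A, 1 member was called in iBET, Ncl, which was lower with IC (-0.59), where 1.47% of all genes were called lower and 1.2% higher. The median over members was 0.07 and ranged from 0.0473 (without iBET Ova A) to 0.147 (without mouse C), and 31 of 49 values were above 0. Of the 11468 genes tested, 5474 were above 0, with a median of -0.0112.

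**Figure D5:**
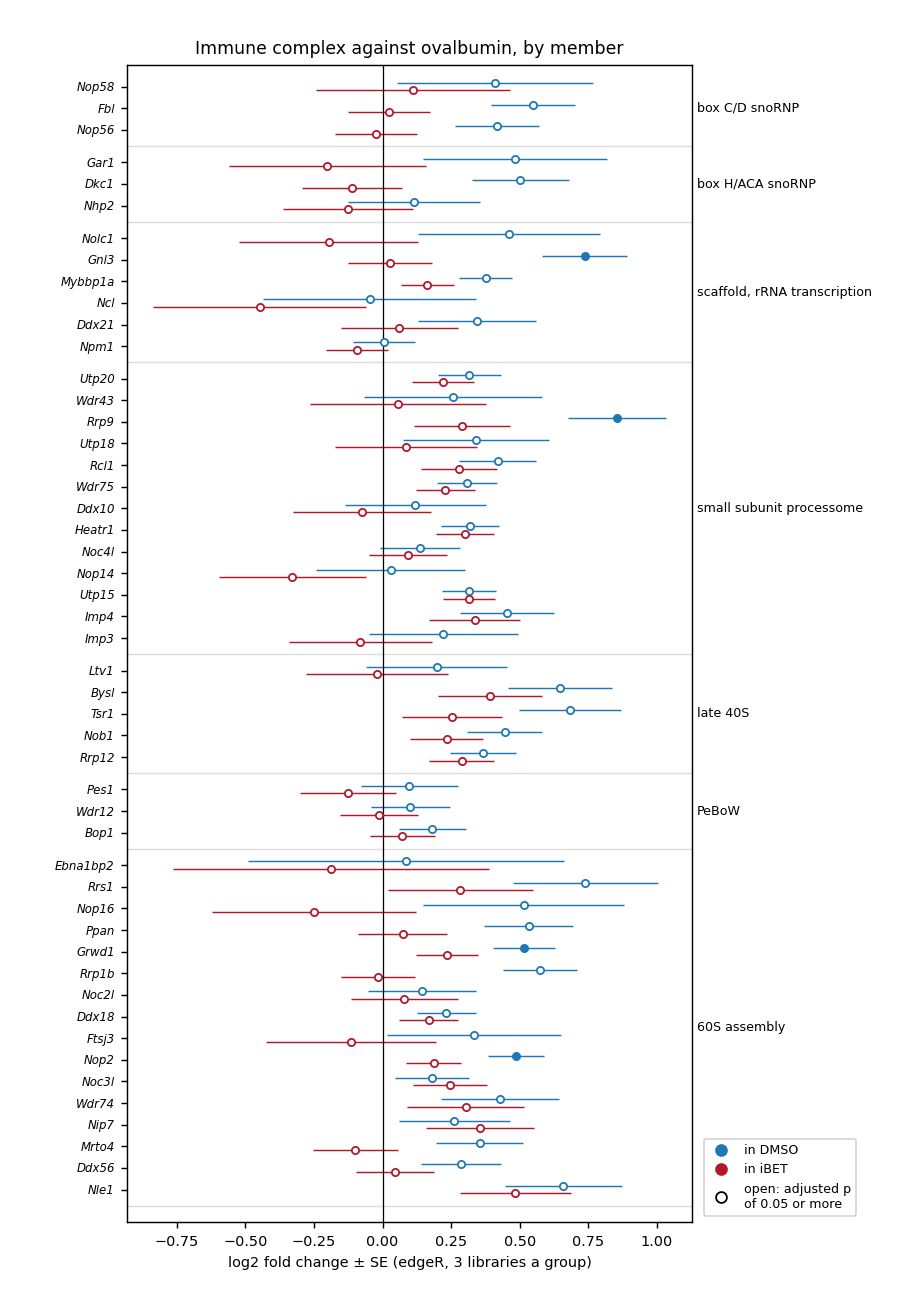
Log2 fold change of IC against Ova (horizontal axis) with its SE for each member (vertical axis, by role), in DMSO (blue) and in iBET (red). Filled points passed an adjusted p of 0.05, which 4 members did in DMSO and 0 in iBET. The blue point lies right of the red one for 46 of 49 members.

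The interaction compares the IC response in iBET with that in DMSO, and equally the iBET effect in IC with that in Ova. No member passed the test in edgeR (0, with a smallest adjusted p of 1) or DESeq2 (0), and of all genes 0% were called in edgeR. At an unadjusted p under 0.05 there were 5 members, all with a smaller IC response in iBET, beside 2.55% of all genes. They were Gnl3 (-0.71, SE 0.217, unadjusted p 0.00663), Rrp1b (-0.59, SE 0.191, unadjusted p 0.00902), Fbl (-0.53, unadjusted p 0.0296), Dkc1 (-0.61, unadjusted p 0.0317) and Rrp9 (-0.56, unadjusted p 0.0415). The value was negative for 46 of 49 members, beside 5743 of the 11468 genes tested. An IC response of opposite sign in the 2 arms was seen in 17 members, and its share among all genes was not computed. Since both IC responses and both iBET effects are made from the same 12 libraries, these counts are not separate from those above. A difference between the arms was thus not shown for any single member.

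The E-box letters CACGTG, which read the same on both strands, were looked for in RefSeq promoters (GRCm38.p6), where 44 of 49 members had an entry. Fbl, Npm1, Rrp12, Bop1 and Rrs1 had none. In the 250 bases before the start, 3 of 44 members (6.82%) held the letters, beside 10.2% of 8616 tested genes with an entry and 6.86% of all entries. With the 50 bases after the start added, a window chosen after the data were seen, 11 of 44 members (25%) held them, beside 12.1% of tested genes and 8.09% of all entries. The sites are printed with their surroundings because they show where in the window the letters lie, and capitals mark CACGTG. Before the start they were found in 3 members.
Imp4 (chr1:34439696-34439725, plus strand): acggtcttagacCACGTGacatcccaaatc
Nop2 (chr6:125131811-125131840, plus strand): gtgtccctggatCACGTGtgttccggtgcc
Utp18 (chr11:93885769-93885798, minus strand): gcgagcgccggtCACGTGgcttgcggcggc

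Within the 50 bases after the start, the letters were found in 8 further members.
Utp20 (chr10:88826765-88826794, minus strand): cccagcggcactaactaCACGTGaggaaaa
Ltv1 (chr10:13193092-13193121, minus strand): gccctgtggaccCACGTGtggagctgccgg
Tsr1 (chr11:74898092-74898121, plus strand): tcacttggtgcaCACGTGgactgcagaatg
Grwd1 (chr7:45830740-45830769, minus strand): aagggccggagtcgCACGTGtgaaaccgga
Wdr43 (chr17:71616220-71616249, plus strand): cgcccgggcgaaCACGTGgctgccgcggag
Mybbp1a (chr11:72441347-72441376, plus strand): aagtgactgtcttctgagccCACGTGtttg
Pes1 (chr11:3963965-3963994, plus strand): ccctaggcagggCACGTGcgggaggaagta
Nle1 (chr11:82908355-82908384, minus strand): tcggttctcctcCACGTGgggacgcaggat

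Of the 11 members with a site, iBET lowered 3 with Ova (Ltv1, Utp20 and Grwd1) and 6 with IC, with medians of -0.24 and -0.54. Of the 33 members with an entry and no site, 7 fell with Ova and 13 with IC, with medians of -0.18 and -0.33. Among all genes tested, 14.2% were called lower with Ova and 15.8% with IC. Gar1 and Dkc1, the members with the largest falls, had no site in the window, whereas Imp4, Nle1, Pes1, Utp18 and Wdr43 had a site and were called in neither comparison.

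The spans of 8 members hold snoRNA genes on the same strand (Nop56, Nop58, Dkc1, Ncl, Gnl3, Wdr43, Tsr1 and Ppan), according to the GENCODE annotation of GRCm38. Some lie within annotated exons of the host: 3 of 5 in Nop56, 1 of 4 in Nop58, 1 of 3 in Ncl, 3 of 3 in Gnl3 and 2 of 2 in Ppan. The part of snoRNA reads in the host counts was not tested. With IC, iBET lowered 5 of the 8 host genes, with a median of -0.86, and 16 of the 41 other members, with a median of -0.31. With Ova the counts were 2 of 8 and 9 of 41, with medians of -0.37 and -0.17. Among all genes tested, 14.2% were called lower with Ova and 15.8% with IC. The DMSO libraries of mouse A were also high in the host genes, with median log2 differences to mice B and C of 0.53 with Ova and 0.52 with IC, beside 0.26 and 0.21 in the other members. Exons of 19 members overlap exons of a gene on the opposite strand, and the use of strand in counting is not given in the sources used here. Among the called members these were Nop56 (Idh3b), Dkc1 (Mpp1), Gnl3 (Pbrm1), Mybbp1a (Spns2), Rrp9 (Parp3), Bysl (Ccnd3), Tsr1 (Srr), Bop1 (Mroh1), Rrp1b (Hsf2bp), Noc2l (Samd11) and Grwd1 (Gm45441), whose counts may include reads of the partner. The 30 members without such overlap had medians of -0.16 with Ova and -0.36 with IC, with 6 and 12 called lower.

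A further list of 94 ribosome biogenesis genes was read in the same fit. With Ova, iBET lowered 10 and raised 4 of the 94, and with IC it lowered 22 and raised 3, with medians of -0.157 and -0.315. The shares called lower were 10.6% with Ova and 23.4% with IC, beside 14.2% and 15.8% of all genes. Those called higher were 4.26% and 3.19%, beside 17.1% and 19% of all genes. The largest falls called in both were those of Mdn1, the AAA ATPase that strips factors from large subunit precursors (-0.94 and -1.23, adjusted p 0.00301 and 0.000378), and Tcof1, treacle, a factor of rRNA transcription (-0.85 and -0.97, adjusted p 0.000301 and 8.83e-05). The largest rises were those of Gnl3l, a GTPase related to Gnl3 (0.69 in both, adjusted p 0.000166 and 0.000121), and the helicase Ddx54 (0.51 and 0.43, adjusted p 0.0063 and 0.0123). With IC in DMSO 2 of the 94 (2.13%, beside 0.732% of all genes) were called higher, with a median of 0.18. Among 25 cell cycle genes, iBET lowered 6 with Ova and 5 with IC and raised 0, with medians of -0.80 and -0.70. These are 24% and 20% of the list, beside 14.2% and 15.8% of all genes called lower. IC changed 0 of the 25 in either arm, where 1.22% of all genes were called in DMSO and 0.349% in iBET. Their part in the members' values was not tested.

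Myc, which encodes a transcription factor known to act on many of these genes, had 61.5 to 65.7 CPM in DMSO Ova, 13.5 to 23.2 in iBET Ova, 94.1 to 127 in DMSO IC and 14.5 to 27.4 in iBET IC. It fell with Ova (-1.72, SE 0.237, adjusted p 0.000235) and with IC (-2.27, SE 0.235, adjusted p 2.61e-05), and its IC response in DMSO was 0.73 (SE 0.226, adjusted p 0.173). Its part in the members' values was not tested.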

How the data were processed

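Total RNA was sequenced in 12 BMDM libraries (4 groups of 3). The authors deposited counts per gene symbol, made by trimming with Trim Galore, aligning to mm10 with HISAT2 and counting with featureCounts, as well as a normalized signal. The deposited signal was checked to equal the counts divided by DESeq2 size factors (largest relative gap 4.89e-15).

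The members and gene lists were chosen with earlier results of these data known. Counts were fitted in edgeR 4.0.16 (R 4.3.3) with filterByExpr (minimum count 10), TMM and the robust quasi-likelihood test, in 1 model of the 4 groups over 11468 genes. Tests were two-sided. P-values were adjusted by Benjamini-Hochberg over all genes, and a call needed an adjusted p under 0.05. On simulated counts for the 11468 genes, 52% of 100 genes changed by 1 on the log2 scale were recovered for iBET in Ova and 60% in IC, and 15% and 7% of 100 changed by 0.5.

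Alternatives were DESeq2 1.42.0, its size factors in edgeR, other filters (none, or 10 counts or more in all libraries), a replicate block for mouse, the compared groups alone, 1 surrogate variable (sva 3.50.0), the authors' signal as log2(value + 1) in limma 3.58.1, removal of Rn45s, and omission of each library and mouse. The labels give each library's animal, which pairs the libraries. Deviations from the group means correlated between -0.07 and 0.54 (median 0.26) in 18 same-mouse pairs, beside a median of -0.13 in 36 pairs of different mice and groups. Genes with full values were, per role, the up to 3 with the largest mean effect of iBET, plus the 2 with the smallest p for each IC response and for the interaction. Other called members and the E-box window after the start were added after their values were seen. Promoters came from RefSeq (GRCm38.p6), gene models from GENCODE.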

Additional observations from a re-analysis of the deposited data

Results flagged for a closer look

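In 2 members every mouse moved one way in one arm and the opposite way in the other. All members were searched for this pattern, for the IC response and for the iBET effect. The share of all genes with the pattern was not computed, so whether it is particular to the members was not tested. For Dkc1 the IC response was 0.50 in DMSO (0.46, 0.49 and 0.43 in mice A, B and C) and -0.11 in iBET (-0.16, -0.08 and -0.09). The difference had an unadjusted p of 0.0317 and did not pass adjustment over all genes (adjusted p 1, edgeR). For Mrto4, a large subunit factor related to a ribosomal stalk protein, the iBET effect was 0.0199 with Ova (0.12, 0.03 and 0.02 in mice A, B and C) and -0.43 with IC (-0.03, -0.63 and -0.63). Several of these Mrto4 values lay near 0. The difference between the 2 iBET effects had an unadjusted p of 0.0633 (edgeR).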

How the results depend on the processing

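Members called for IC against Ova in DMSO, 4 as reported, numbered 8 with DESeq2, 2 without a filter, 8 with mouse as a replicate block, 0 with the compared groups alone and 20 with 1 surrogate variable, where 2.32%, 0.794%, 2.75%, 0.0436% and 3.79% of all genes were called. Fits that left out a library or mouse gave 0 to 5 for that comparison, 2 to 16 for iBET with Ova and 13 to 26 for iBET with IC. They gave 0 to 1 for IC in iBET and 0 for the interaction. The share of all genes called moved as well. At the ends of the 2 iBET ranges it was 11.4% and 33.9% with Ova, and 21.7% and 38.8% with IC. It was 1.08% where 5 members were called for IC in DMSO, and 2.68% where 1 was called for IC in iBET. The causes were not tested, beyond the fewer samples in these fits. The replicate block gave 14 members (28.6%, beside 38.3% of all genes) for iBET with Ova, 24 (49%, beside 42.1%) with IC, and 0 for IC in iBET and the interaction, and no call was lost. With DESeq2 size factors in edgeR the medians of all genes shifted by -0.04 with Ova and -0.03 with IC. Changes of sign were looked for among the genes chosen for full values. In the fits that left out a library or mouse, some values that did not pass the test changed sign. With Ova these were Fbl (-0.20 to 0.00999), Nhp2 (-0.419 to 0.0275), Nolc1 (-0.529 to 0.118), Pes1 (-0.362 to 0.114) and Heatr1 (-0.134 to 0.0895). With IC they were Nop56 (-0.0575 to 0.164) and Heatr1 (-0.153 to 0.0581). With 3 libraries per group, small changes can be missed, and changes of 0.5 on the log2 scale mostly were in the simulation, where few genes changed. In the data some members with smaller changes were called, such as Mybbp1a (-0.31 with IC) and Ddx18 (-0.40 with Ova). DMSO Ova A held far fewer counts on genes other than Rn45s.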
